A study of Homo sapiens with 4 samples.

Results

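The genes of the aryl hydrocarbon receptor and of the CYP1 enzymes were followed in 22Rv1 cells after exposure to WCE, a herbal extract. The members were taken by gene symbol: every probe that the platform annotation assigns to AHR, ARNT, ARNT2, AHRR, PTGES3, CYP1A1, CYP1A2, CYP1B1 or NEDD9, which gave 13 of the 47320 probes on the array for 9 of the 20046 genes named there. 22Rv1 is an established human prostate carcinoma line that was derived from a xenograft, and all results come from this single line. Cells received vehicle (2 arrays) or 10 µg/mL of WCE (2 arrays) for 16 h, per the labels, and total RNA was hybridised to Illumina bead arrays. What WCE contains is not stated in the labels. They number the arrays within a group but do not tell whether each had its own culture, and the spread behind every p-value may therefore be technical.

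The aryl hydrocarbon receptor (AHR) is a ligand-activated transcription factor of the bHLH-PAS family. Without ligand it waits in the cytosol, bound to HSP90 and the co-chaperone p23, the product of PTGES3. With a ligand, classically a planar aromatic compound such as dioxin, benzo[a]pyrene or a plant-derived indole or flavonoid, it enters the nucleus, pairs with ARNT and binds response elements whose core reads GCGTG. CYP1A1, CYP1A2 and CYP1B1 encode the haem monooxygenases that oxidise such ligands and are its best known targets. AHRR, itself a target, encodes a repressor that competes for ARNT.

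CYP1A1 and CYP1A2 are divergently transcribed neighbours on chromosome 15, with start sites 23.3 kb apart in RefSeq (GRCh38.p14). The 250 bases before the start are shown for both, as the genes that rose most, and for AHRR, as the receptor's own repressor. Capitals mark GCGTG, searched on both strands (CACGC on the other strand).
CYP1A1 (GRCh38.p14, chr15:74725529-74725778, minus strand): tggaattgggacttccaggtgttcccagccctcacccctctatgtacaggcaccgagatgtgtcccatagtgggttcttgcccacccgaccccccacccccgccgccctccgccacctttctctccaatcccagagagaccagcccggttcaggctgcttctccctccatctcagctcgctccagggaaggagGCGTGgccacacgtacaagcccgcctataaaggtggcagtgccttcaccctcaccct
CYP1A2 (GRCh38.p14, chr15:74748595-74748844, plus strand): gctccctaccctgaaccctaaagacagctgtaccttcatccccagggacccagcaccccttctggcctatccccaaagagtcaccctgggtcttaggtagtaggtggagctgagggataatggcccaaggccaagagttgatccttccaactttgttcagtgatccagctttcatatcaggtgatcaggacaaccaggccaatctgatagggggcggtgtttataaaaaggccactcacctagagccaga
AHRR (GRCh38.p14, chr5:321464-321713, plus strand): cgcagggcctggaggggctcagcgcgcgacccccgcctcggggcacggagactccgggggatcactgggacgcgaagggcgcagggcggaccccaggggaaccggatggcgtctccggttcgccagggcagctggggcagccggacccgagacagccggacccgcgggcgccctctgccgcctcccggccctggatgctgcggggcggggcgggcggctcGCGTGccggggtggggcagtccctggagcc
The CYP1A1 window holds 1 match, 57 to 53 bases before the start, and the CYP1A2 window none. The AHRR window shown holds 1 match, 30 to 26 bases before the start, which also fits the longer form TNGCGTG. A second AHRR window, for a start further downstream and not shown, holds 2 matches, 247 to 243 and 42 to 38 bases before that start. RefSeq windows were at hand for 7 of the 9 members, all but CYP1B1 and ARNT2, which were not searched. AHRR and NEDD9 had more than 1 window each, giving 10 windows in all. Of these 10, 4 held the core, against 32.2% of all 35116 windows of 250 bases. The longer form, which contains the core, was in 1 of the 10 and in 4.52% of all windows. The windows of AHR, ARNT and NEDD9 held no match, and that of PTGES3 held 1 on the opposite strand. These matches describe letters in a short window. The well studied response elements of CYP1A1 lie further upstream, outside it.

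After WCE the 3 CYP1 genes rose, by more than any other probe tested, whereas the receptor, its partners and NEDD9 did not pass the test. Of the 13 member probes, 9 in 7 genes were bright enough to be tested, that is, detected (detection p-value below 0.05) on both vehicle arrays, on both WCE arrays, or on all 4. Of these 9 probes 3 rose and 0 fell at an adjusted p below 0.05 (limma, Benjamini-Hochberg over all 21996 probes tested). At an unadjusted p below 0.05, 1 was lower, the bright AHR probe, as were 9.43% of all probes tested. Over the whole array 186 probes, 0.846%, passed, 117 of them higher (0.532%) and 69 lower (0.314%). WCE replicate 2 stood furthest from the other arrays. Its log2 values correlated at 0.979 and 0.981 with the vehicle arrays, against 0.984 and 0.988 for WCE replicate 1, 0.989 between the WCE arrays and 0.993 between the vehicle arrays (Pearson's r across tested probes, which are not independent replicates). More probes differed over 2-fold between the WCE arrays (305) than between WCE replicate 1 and vehicle replicate 2 (228). Leaving out vehicle replicate 1 or vehicle replicate 2 lowered the whole-array count to 62 and 40, leaving out WCE replicate 2 lowered it to 45, and leaving out WCE replicate 1 raised it to 1107. The member count was 3 in each of these fits, and without WCE replicate 2 the rises were 6.47 for CYP1A1, 5.52 for CYP1A2 and 4.73 for CYP1B1 (log2). A probe bright only after WCE can enter the test only by being higher there, which applies to 3 of the 9 tested, namely that of CYP1A2 and both tested probes of NEDD9. With 2 arrays against 2, the smallest p of an exact permutation test, taken two-sided, is 0.333, so each call rests on limma's variance pooled over probes.

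**Figure D1:**
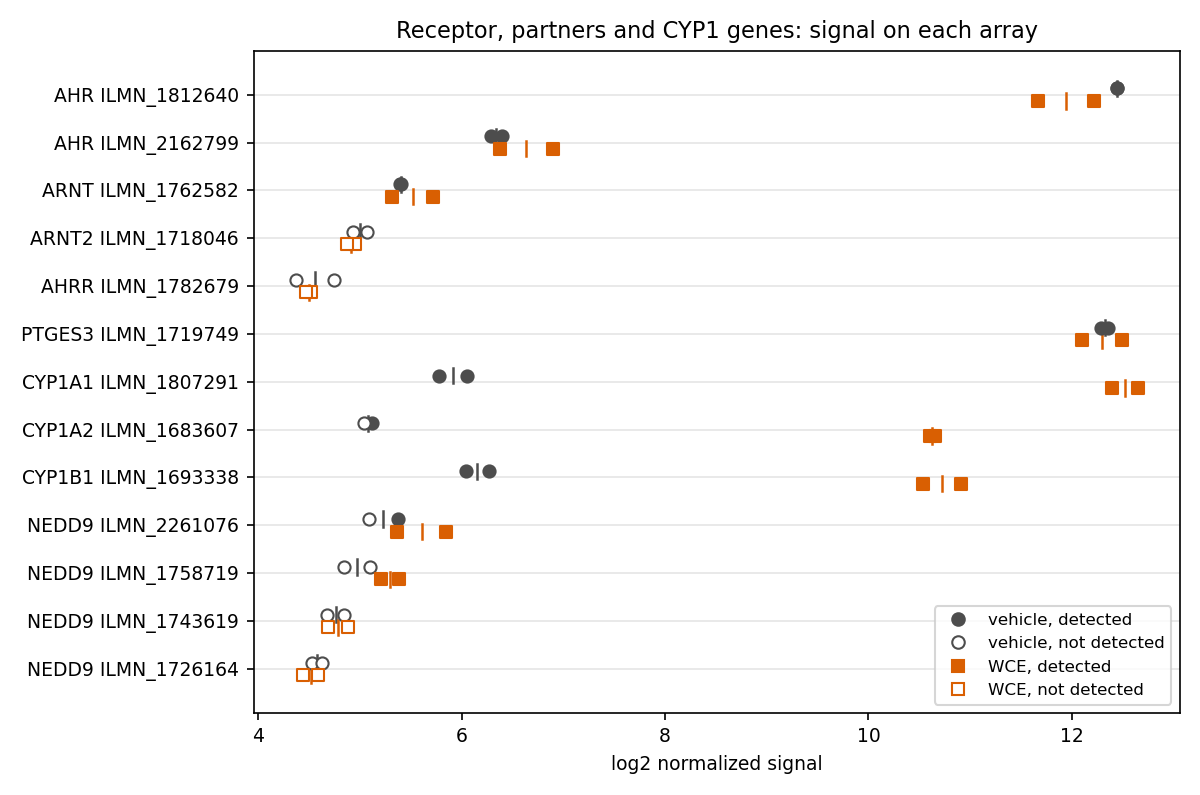
Normalized log2 signal (horizontal axis) of each of the 13 member probes on each array, circles for vehicle and squares for WCE, filled where the probe was detected, with a tick at each group mean. The CYP1A1, CYP1A2 and CYP1B1 probes lie at 5.04 to 6.26 with vehicle and at 10.54 to 12.65 after WCE, while for the other 10 probes the groups lie close together or overlap. Signals of different probes are not comparable as amounts of RNA.

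CYP1A1 oxidises polycyclic aromatic hydrocarbons and many planar drugs, and it is the transcript most used as a readout of the receptor. With vehicle its raw signals were 107 and 117, and after WCE 6027 and 6347 (probe ILMN_1807291). After normalization the log2 values were 5.77 and 6.05 with vehicle, and 12.40 and 12.65 after WCE. Both WCE arrays stood far above both vehicle arrays, with means of 12.52 ± 0.18 and 5.91 ± 0.20 (log2, SD, n = 2). The rise was 6.61 ± 0.19 (log2, SE, n = 2 per group), or 97.8-fold, with a 95% confidence interval from 73.0-fold to 131-fold (adjusted p = 1.54e-06, limma). It ranked first among the 21996 probes. The brightest probes on each array reached at least 34578, so the CYP1A1 signal lay well inside the range of signals seen on these arrays.

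CYP1A2 is chiefly a liver enzyme, known for the metabolism of caffeine and the activation of aromatic amines. Its raw signals were 86.6 and 83.8 with vehicle, close to the median of all probes on those arrays (83.5 and 82.95), and 1821 and 1606 after WCE (probe ILMN_1683607). It was detected on 1 of the 2 vehicle arrays, with detection p-values of 0.0351 and 0.061. The log2 values were 5.12 and 5.04 with vehicle, and 10.60 and 10.65 after WCE. The arrays of a group lay close together, with an SD of 0.054 for vehicle and 0.034 for WCE, and the rise was 5.55 ± 0.16 (log2, SE, n = 2 per group), 46.8-fold with an interval from 36.1-fold to 60.6-fold (adjusted p = 1.54e-06, limma). Since the vehicle signal lay at the edge of detection, this fold rests on the background correction and was 19.2 without it.

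CYP1B1 hydroxylates oestradiol and activates aromatic procarcinogens, and it is the CYP1 enzyme best known from tissues outside the liver. Raw signals were 118 and 128 with vehicle, and 2200 and 1489 after WCE (probe ILMN_1693338). The log2 values were 6.04 and 6.26 with vehicle, and 10.91 and 10.54 after WCE. WCE replicate 1 was the higher array here, whereas WCE replicate 2 was the higher one for CYP1A1. The rise was 4.57 ± 0.19 (log2, SE, n = 2 per group), 23.7-fold with an interval from 17.5-fold to 32.2-fold (adjusted p = 2.2e-05, limma).

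The sizes of these rises, though not their calls, moved with the background correction. Without it the folds were 52.5 for CYP1A1, 19.2 for CYP1A2 and 14.1 for CYP1B1, and in the authors' processed values they were 54.4, 19.7 and 14.2. All of these lie below the confidence intervals given above, which cover the spread between arrays under the reported processing only. Over all 16 alternatives the rise of CYP1A1 lay between 5.71 and 6.77 on the log2 scale, and that of CYP1B1 between 3.81 and 4.73. CYP1A2 lay between 4.26 and 5.61 over the 15 alternatives in which it was tested. The order CYP1A1, CYP1A2, CYP1B1 was the same in each of those 15, but folds of different probes also depend on how each probe responds, and the differences between genes were not tested.

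**Figure D2:**
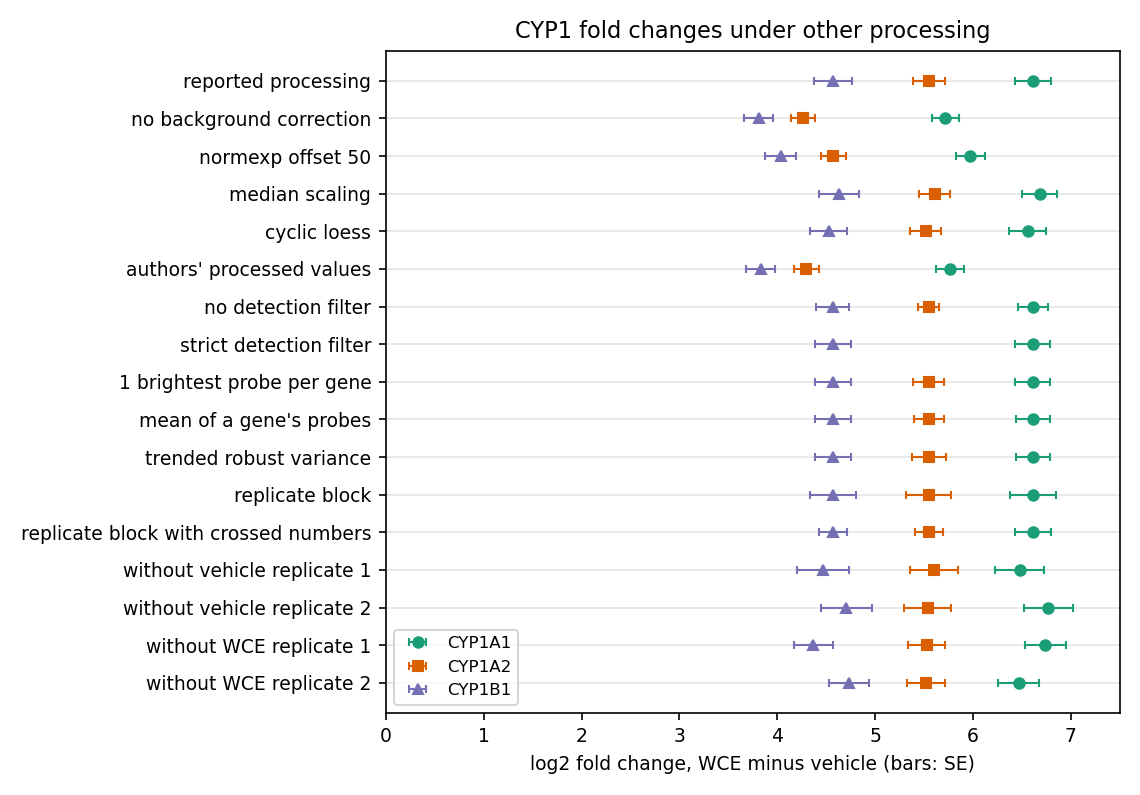
Log2 fold change, WCE minus vehicle, of CYP1A1, CYP1A2 and CYP1B1 (horizontal axis) under the reported processing and each of 16 alternatives (vertical axis), with bars for the SE. Every point lies above 3.8, and the smallest rises are those without background correction and in the authors' processed values. CYP1A2 is missing under the strict detection filter.

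The receptor itself was measured by 2 probes, whose differences had opposite signs and did not pass. The bright probe, ILMN_1812640, had raw signals of 5467 and 5326 with vehicle, and 5401 and 3189 after WCE. Its log2 values were 12.44 and 12.44 with vehicle, and 12.22 and 11.67 after WCE. On this normalized scale both WCE arrays were below both vehicle arrays, most clearly WCE replicate 2. The raw signal of WCE replicate 1 was above that of vehicle replicate 2. The difference was -0.50 ± 0.21 (log2, SE, n = 2 per group), with an interval from -0.98 to -0.02. It did not pass over all probes (adjusted p = 0.258, limma), and without WCE replicate 2 it was -0.22. It was negative in each of the 15 alternatives that gave this probe a value of its own, from -0.79 to -0.22, and passed in 0 of them.

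The dim AHR probe, ILMN_2162799, had log2 values of 6.39 and 6.28 with vehicle, and 6.90 and 6.37 after WCE. Its groups overlapped, and the difference of 0.29 ± 0.21 (log2, SE, n = 2 per group) did not pass (adjusted p = 0.502, limma). Its interval, from -0.18 to 0.77, reaches neither the rises of the CYP1 genes nor a fall as large as the estimate of the bright probe. Which of the 2 probes follows the AHR transcript more closely was not tested.

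ARNT, the nuclear partner of the receptor and of the hypoxia factors, was dim but detected on all 4 arrays (probe ILMN_1762582). Its log2 values were 5.39 and 5.41 with vehicle, and 5.72 and 5.32 after WCE, so the groups overlapped. The difference was 0.12 ± 0.19 (log2, SE, n = 2 per group; interval -0.31 to 0.55; adjusted p = 0.793, limma), and without WCE replicate 1 it was -0.08. ARNT2, the paralog best known from neurons and kidney, was detected on 0 of 4 arrays. Its raw signals were 81.0 and 84.6 with vehicle, and 83.0 and 77.7 after WCE, close to the median of the array.

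PTGES3 encodes p23, which stabilises HSP90 clients such as this receptor and also acts as a cytosolic prostaglandin E synthase. It was bright, with log2 values of 12.36 and 12.29 with vehicle, and 12.49 and 12.10 after WCE (probe ILMN_1719749). The vehicle values fell between the 2 WCE values. The difference was -0.03 ± 0.19 (log2, SE, n = 2 per group; interval -0.45 to 0.40; adjusted p = 0.963, limma), and it was 0.08 with median scaling and 0.16 without WCE replicate 2.

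AHRR, the repressor, was not detected on any of the 4 arrays by its single probe, ILMN_1782679. Raw signals were 74.7 and 53.9 with vehicle, and 65.0 and 61.2 after WCE, all below the array medians, with detection p-values from 0.206 to 0.965. With this probe at background throughout, a change of this target gene could not be measured.

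NEDD9, a scaffold protein of focal adhesions that has been described as induced through the receptor by dioxin, had 4 probes, of which 2 were tested. Probe ILMN_2261076 had log2 values of 5.37 and 5.09 with vehicle, and 5.85 and 5.36 after WCE, and probe ILMN_1758719 had 4.84 and 5.09, and 5.20 and 5.39. The former overlapped between groups and was detected on 1 of the 2 vehicle arrays. The latter did not overlap, and was detected on 0 vehicle arrays and both WCE arrays. Their differences were 0.38 ± 0.21 and 0.33 ± 0.18 (log2, SE, n = 2 per group), with intervals from -0.10 to 0.86 and from -0.08 to 0.73, and neither passed (adjusted p = 0.394 and 0.381, limma). The other 2 probes, ILMN_1743619 and ILMN_1726164, were detected on 0 of 4 arrays.

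Groups did not overlap for 5 of the 9 tested member probes (55.6%), against 49.3% of all tested probes, so non-overlap alone separates little here. The 6 probes that did not pass had differences from -0.50 to 0.38 on the log2 scale.

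**Figure D3:**
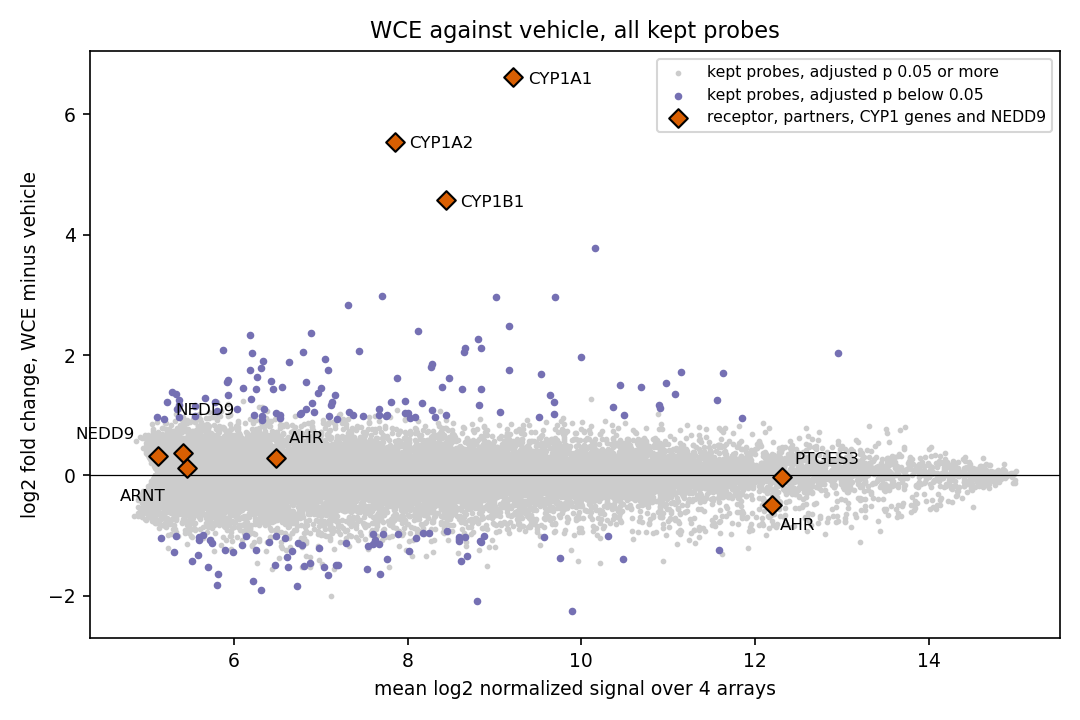
Log2 fold change, WCE minus vehicle (vertical axis), against the mean log2 signal over the 4 arrays (horizontal axis) for the 21996 tested probes, with the 9 tested member probes as diamonds. CYP1A1, CYP1A2 and CYP1B1 stand above all other probes at 6.61, 5.55 and 4.57, and the other 6 diamonds lie within the band of probes that did not pass.

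Other genes known to be induced through the receptor rose in part. Of 19 listed genes 18 had a probe and 11 were tested, each by its brightest tested probe. Of these 5 rose and 6 did not pass. None fell, and none was lower at an unadjusted p below 0.05 (limma), against 1016 of all 12136 genes tested. Of all 12136 genes tested 1.01% passed, 0.692% higher and 0.313% lower. The median log2 fold change was 0.27, against 0.01 over all genes. ABCG2 and UGT1A6 were detected on 1 vehicle array and both WCE arrays and so entered the test through the WCE group, and over the other 9 genes the median was also 0.27. The list was drawn up with earlier results of these data known.

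TIPARP, an ADP-ribosyltransferase that feeds back on the receptor, had log2 values of 8.02 and 8.39 with vehicle, and 11.30 and 11.06 after WCE, a rise of 2.97 ± 0.19 (log2, SE, n = 2 per group; adjusted p = 0.000472, limma). UGT1A1, which conjugates bilirubin, had 5.93 and 5.86, and 8.79 and 8.65 (rise 2.82 ± 0.17, adjusted p = 0.000239, limma). For the quinone reductase NQO1 the values were 11.94 and 11.93, and 13.89 and 14.03. It rose by 2.03 ± 0.17, and by 2.11 ± 0.16 in its second probe. In these genes both WCE arrays were above both vehicle arrays.

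The drug efflux pump ABCG2 had 4.93 and 5.11 with vehicle, where it was detected on 1 of 2 arrays, and 7.62 and 7.08 after WCE, a rise of 2.33 ± 0.21 (log2, SE; adjusted p = 0.00204, limma). The prostaglandin synthase PTGS2 rose by 1.76 ± 0.21 (adjusted p = 0.00739, limma), and its second probe was too dim to be tested. Without background correction the differences were smaller, 1.37 for ABCG2, 1.02 for PTGS2 and 2.08 for UGT1A1, and in the authors' processed values 1.41, 1.05 and 2.10, and all of these passed. Without a detection filter 3 of the 5 passed, since ABCG2 and PTGS2 had adjusted p of 0.0668 and 0.11. Under the strict filter ABCG2 and PTGS2 were too dim to be tested, and the other 3 of the 5 passed.

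The members that did not pass lay between 0.06 and 0.27. UGT1A3 and UGT1A6, whose transcripts share their last exons with UGT1A1, had 0.27 ± 0.17 and 0.26 ± 0.22, and NFE2L2, the NRF2 gene, had 0.22 ± 0.17. The amino acid transporter SLC7A5 had 0.18 ± 0.16. UGT1A4, UGT1A9, ALDH3A1, CYP2S1, XDH, EREG and IL1B had a probe but were too dim to be tested, and SERPINB2 is not analysed here.

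The chaperones, coactivators and turnover factors of the receptor did not pass. Of 15 tested genes 0 passed in limma at an adjusted p below 0.05, nor did any in the 16 alternatives, and 0 of the brightest probes had an unadjusted p below 0.05, against 17.3% of all genes. Their differences ran from -0.33 to 0.33, with a median of -0.03. HSP90AA1 and HSP90AB1, the cytosolic chaperones that hold the receptor, had 0.20 ± 0.16 and 0.20 ± 0.17 (log2, SE), while dimmer probes of HSP90AA1 had 0.30 and -0.25. The coactivator NCOA1 had -0.33 ± 0.17, and its dimmer probes had -0.44 ± 0.18 and -0.06 ± 0.18. The former of these dimmer probes was below an unadjusted p of 0.05 (limma). It was detected on 0 WCE arrays and so entered the test through the vehicle group. The chromatin remodeller SMARCA4 had -0.26 ± 0.17 and the receptor-binding RB1 0.33 ± 0.21.

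Among other bHLH-PAS factors, 7 of 12 were tested, 1 rose and 0 fell, against 0.692% and 0.313% of all genes. At an unadjusted p below 0.05, 2 were higher and 0 lower (limma). That is 28.6% of the 7 genes, against 17.3% of all genes. The gene that passed after adjustment was EPAS1, the hypoxia factor HIF-2 alpha, which also pairs with ARNT. Its log2 values were 5.88 and 5.71 with vehicle, and 6.84 and 6.95 after WCE. The rise was 1.10 ± 0.17 (SE, n = 2 per group; adjusted p = 0.0278, limma). Without background correction it was smaller, 0.67, and in the authors' processed values 0.68, and it passed in both. The call was absent when vehicle replicate 1 was left out (adjusted p = 0.124), likewise for vehicle replicate 2 (0.207) and WCE replicate 2 (0.134), and when no filter was set (0.108). HIF1A had -0.01 ± 0.16, and 0.11 with median scaling. NPAS1 and NPAS2 had 0.51 ± 0.17 and 0.40 ± 0.20, SIM2 -0.29 ± 0.19 and the clock factor BMAL1 0.29 ± 0.17. The second probe of BMAL1 had -0.51.

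**Figure D4:**
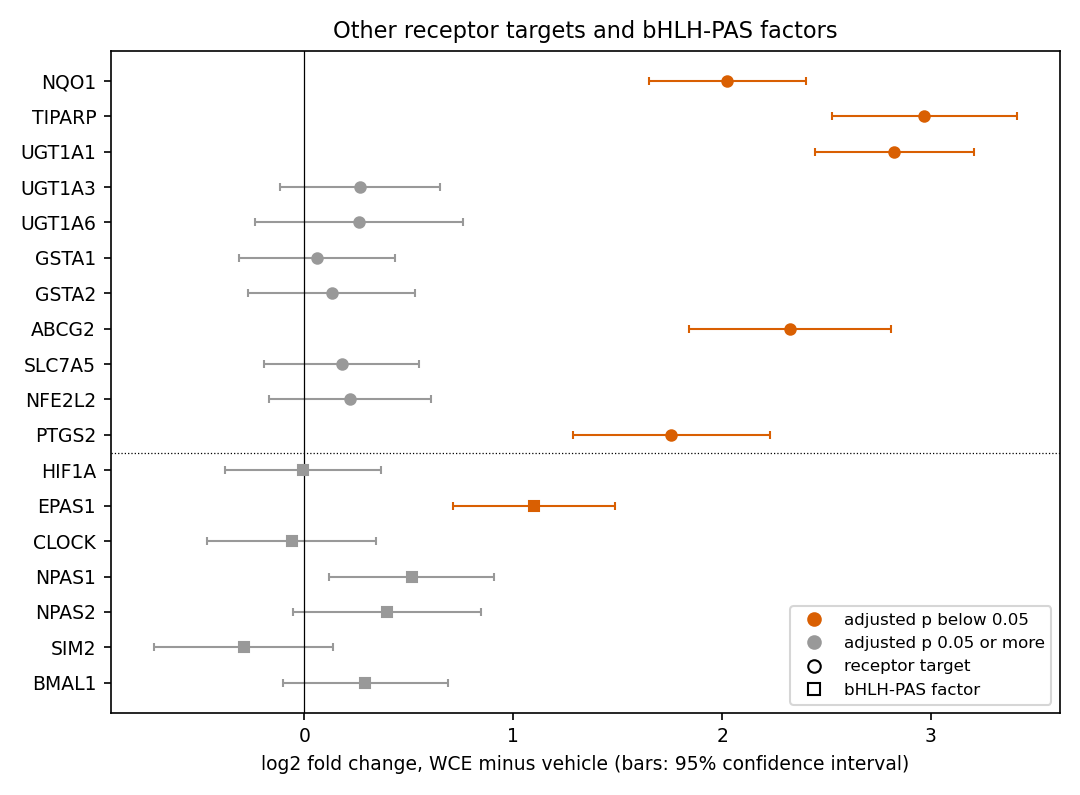
Log2 fold change, WCE minus vehicle, with its 95% confidence interval (horizontal axis) for the 11 tested target genes (circles) and the 7 tested bHLH-PAS factors (squares), coloured where the adjusted p was below 0.05. TIPARP, UGT1A1, ABCG2, NQO1 and PTGS2 lie at 1.76 or above, EPAS1 lies at 1.10, and the other intervals except that of NPAS1 include 0.

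The profile most like that of CYP1A1 was sought among 16447 named probes, as the root mean square difference over the 4 arrays of log2 values centred on the vehicle mean. The nearest were CYP1A2 at 0.77 and CYP1B1 at 1.46. Outside the members they were GDF15, a stress-induced secreted factor, at 2.00, CGA, the common subunit of glycoprotein hormones, at 2.58, and TIPARP, also at 2.58. The measure rests on 4 arrays and follows mainly the size of the rise, which was 3.78 ± 0.17 in GDF15 and 2.97 ± 0.20 in CGA (log2, SE, n = 2 per group).

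The share of probes detected ran from 45.2% to 48.9% over the 4 arrays. Of 9 measured prostate epithelial markers 8 were detected on all 4 arrays, among them HOXB13, FOXA1 and EPCAM, and KLK3 was detected on 0. Among these 9 markers TMPRSS2, an androgen-induced protease, fell by 1.66 on the log2 scale (adjusted p = 0.00494, limma). Of 5 fibroblast markers 2, COL1A1 and LUM, and of 4 leukocyte markers 2, CD14 and LYZ, were detected on all arrays. The other 2 leukocyte markers, PTPRC and CD3E, were detected on 0 arrays, and no fibroblast or leukocyte marker passed.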

How the data were processed

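Raw intensities and, beside each, a detection p-value were deposited for 4 arrays, per the file headers. As far as their values show, the intensities are linear, with no background subtraction or normalization. The authors also deposited processed log2 values, by a method not given in the sources used here. Their ranks equalled those of the raw signals on each array (Spearman's rho 1), their medians were 6.40 on each array, and none differed by more than 0.134 from log2 raw signals after quantile normalization.

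Raw signals were corrected in limma 3.58.1 (R 4.3.3) with normexp, negative controls being inferred from the detection p-values, with an offset of 16, then quantile-normalized and put on the log2 scale. Symbols came from the platform annotation (30112 probes with 1 symbol, 8 with several, 17200 with none). Gene numbers were looked up in a RefSeq table and 0 symbols needed updating. Probes detected (p below 0.05) in the whole of either group were fitted with lmFit and eBayes (2 residual and 6.76 prior degrees of freedom), with Benjamini-Hochberg adjustment over all of them at 0.05. Only the fit and its adjustment were tested on simulated data, drawn with the variances fitted here. Background correction, normalization and the detection filter were not.

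Every member probe is described. From each list the genes that passed are named, then up to 4 of the rest with the smallest p, a fixed few (TIPARP, NQO1, HIF1A, HSP90AB1, POR), and the 3 genes nearest to CYP1A1. Other probes and markers were named after their values were seen. Members and lists were chosen with earlier results of these data known. The labels give no pairing, so the numbers were not used as pairs in the reported fit. Same-numbered arrays did not deviate together (r = -0.119 over tested probes), but this correlation cannot settle whether arrays were paired. The number of arrays limits the precision. Promoter sequences are from RefSeq, GRCh38.p14. A slide block was not fitted, since no slide is given in the sources used here.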

Additional observations from a re-analysis of the deposited data

How the results depend on the processing

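Across 16 alternatives the calls of CYP1A1 and CYP1B1 held, as did that of CYP1A2 in the 15 where it was tested. The strict detection filter left it out, so 2 member probes passed there. The number of probes that passed over the whole array was 186, and 401 without background correction, 397 with an offset of 50, 101 with median scaling, 419 in the authors' processed values, 21 without a detection filter, 350 with the strict filter, 285 for genes as the mean of their probes and 471 with a trended robust variance. Leaving out 1 array gave 40 to 1107. With a replicate block it was 1182, where the fit gave every probe the same SE, and the 3 member calls and the list counts were as reported. A block with crossed numbers, chosen after seeing the data, gave 73, with 0 bHLH-PAS and 0 redox and haem genes. The target list had 3 genes without a filter and 3 with the strict filter. The bHLH-PAS list had 0 without a filter and 0 to 2 with 1 array left out. The redox and haem list had 2 without background correction, with an offset of 50, in the authors' values and with a trended variance. It had 0 with median scaling, cyclic loess or no filter, and 0 to 1 with 1 array left out. Of 578 recomputed single values 548 kept direction and side of the threshold, 14 lost the call, 4 gained it and 12 changed sign, none of these 12 called. The sign changes were ARNT without WCE replicate 1 (-0.079, up to 0.33 with other arrays left out), PTGES3 with median scaling (0.076) and without vehicle replicate 1 or WCE replicate 2 (range with 1 array left out -0.22 to 0.16), UGT1A6 without vehicle replicate 2 (-0.024, up to 0.55), HIF1A with median scaling (0.11), with the mean of its probes (0.029) and without vehicle replicate 2 or WCE replicate 1 (range -0.034 to 0.022), BMAL1 with the mean of its probes (-0.11), and POR with median scaling (0.045) and without vehicle replicate 1 (0.065, down to -0.18). With median scaling 77.2% of passing probes were higher, against 62.9% in the reported fit. Why the counts moved was not tested. The number of probes tested also differs between settings, being lower with the strict filter and 47320 without a filter. Signal over background limits AHRR, ARNT2, ARNT and NEDD9. Where 1 array was left out, the spread of the remaining single array was taken from the other group.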

Other observations

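Microsomal cytochromes P450 need haem and electrons, and genes for both were measured. Of 11 tested genes of the redox partners and of haem synthesis 1 rose and 0 fell, with a median log2 fold change of 0.03 against 0.01 over all genes, and 0.692% of all tested genes rose and 0.313% fell. At an unadjusted p below 0.05, 2 were higher and 0 lower (limma). That is 18.2% of the 11 genes, near the 17.3% of all genes. The gene that passed after adjustment was ALAS1, the first enzyme of haem synthesis. Its log2 values were 6.41 and 6.39 with vehicle, and 7.28 and 7.63 after WCE. Its rise was 1.06 ± 0.18 (SE, n = 2 per group; adjusted p = 0.0428, limma), and a second probe had 0.78 ± 0.21 (adjusted p = 0.13). For the first probe the rise was smaller without background correction, 0.74, and also 0.74 in the authors' processed values, and it passed in both. ALAS1 no longer passed when vehicle replicate 1 was left out (adjusted p = 0.221), likewise for vehicle replicate 2 (0.226) and WCE replicate 2 (0.182), with median scaling (0.0529), with cyclic loess (0.0534) and without a filter (0.148).

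CYB5B, an outer mitochondrial membrane cytochrome b5, had 0.66 ± 0.17 (log2, SE) without passing (adjusted p = 0.117, limma), and it passed in 4 alternatives, among them no background correction (0.0368). POR, the reductase that passes electrons to all microsomal cytochromes P450, the CYP1 enzymes included, had -0.06 ± 0.17, with values of 8.87 and 8.62 with vehicle, and 8.64 and 8.73 after WCE that overlapped. CYB5A, the microsomal cytochrome b5, had -0.29 ± 0.16, and the haem synthesis enzymes CPOX and FECH had -0.18 ± 0.16 and 0.20 ± 0.18.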
